A study of Chlorocebus sabaeus with 10 samples.

Results

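The genes of iron storage, iron transport and hepcidin control were followed in livers of female vervet monkeys (Chlorocebus sabaeus), an Old World primate. They were HAMP, TF, TFRC, TFR2, FTH1, FTL, SLC40A1, HFE, CP and TMPRSS6, chosen by gene symbol in the deposited transcript table. Of these 10 genes, 9 had a row, each with 1 transcript, among 28078 deposited transcripts. FTL, the ferritin light chain, had no row under that symbol and was not analysed here. All 9 were among the 7948 transcripts that passed the filter on low counts. Chow was the earlier food of both groups. For 6 weeks 5 females received the high fructose (HFr) diet and 5 stayed on chow, and each liver biopsy gave 1 library of polyadenylated RNA. The paper calls these females age-matched. The mean age it reports was higher on HFr, though not significantly, and age was not a term in the comparisons here. No genotype is given for the animals, and no treatment other than diet is reported to differ between the groups.

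Iron circulates bound to transferrin, the product of TF, and enters cells through the transferrin receptor TFRC. Inside the cell it is stored in ferritin, whose heavy chain FTH1 oxidises the iron, and it leaves through ferroportin, encoded by SLC40A1. Hepatocytes hold the control point. They secrete hepcidin, the peptide encoded by HAMP, which binds ferroportin and causes its degradation. Transcription of HAMP is raised by bone morphogenetic protein (BMP) signals acting through SMAD factors, for which HFE, TFR2 and hemojuvelin serve as iron-sensing partners, and by interleukin-6 acting through STAT3. The protease encoded by TMPRSS6 works against the BMP branch by cleaving hemojuvelin.

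The libraries held 2977282 to 4992505 estimated counts each, and 34.7% to 73.6% of these lay on transcripts of the mitochondrial genome. This left 864571 to 2657103 counts per animal for nuclear transcripts. The mitochondrial share averaged 55.5% ± 11.8 in HFr and 55.4% ± 16.5 in chow livers (SD, n = 5 each), and exceeded 65% in HFr 3, chow 4 and chow 5. All 8 hepatocyte marker genes were detected, ALB at 21647 to 45270 normalised counts, and none of them differed between diets at an unadjusted p under 0.05. Among markers of other cell types, 1 of 5 tested stellate cell genes (ACTA2, log2 fold change −1.57) and 1 of 6 tested endothelial genes (KDR, 0.57) had an unadjusted p under 0.05, as did 4.29% of all tested transcripts, and neither passed adjustment (edgeR adjusted p = 0.9996 for both). Of the 5 stellate cell genes, 4 had negative log2 fold changes and 1 a positive one (COL1A1, 0.20). Of the 6 endothelial genes, 5 had positive log2 fold changes and 1 a negative one (STAB1, −0.19). The summed lists ran from 198 to 381 on HFr and 162 to 780 on chow for stellate cells, and from 310 to 419 and 234 to 407 normalised counts for endothelial cells. Their part in the results was not tested. In whole biopsies, fewer cells of a type and less RNA per cell cannot be told apart. Animals are named by diet and number, and a normalised count is the estimated count in CPM after TMM scaling of the library size.

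None of the 9 genes passed edgeR's quasi-likelihood test for a difference between the diets. The count was 0 of 9 at an unadjusted p under 0.05, against a background of 4.29% of all tested transcripts (341 of 7948), and 0 of 9 after Benjamini-Hochberg adjustment, against a background of 0% (0 of 7948). The adjusted p was 0.9996 for each of the 9. DESeq2 placed TF alone under 0.05 without adjustment and none with it. Two-sided exact permutation tests of the mean log2 level, run after the values were seen and not adjusted, are given beside each gene. Fitted log2 fold changes (HFr minus chow) were positive for 7 genes and negative for FTH1 and HFE, and ranged from −0.21 to 0.37. Their median was 0.17, beside −0.00075 over all tested transcripts, and their median size irrespective of sign was 0.18, beside 0.17. No gene had diet groups that did not overlap, where 0.541% of all tested transcripts did. Variation between animals of 1 diet, as edgeR's biological coefficient of variation, had a median of 32.0% over the 9 genes and 25.0% over all tested transcripts. It was largest for HAMP (48.0%) and CP (46.3%), and smallest for TFRC (18.8%).

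**Figure D1:**
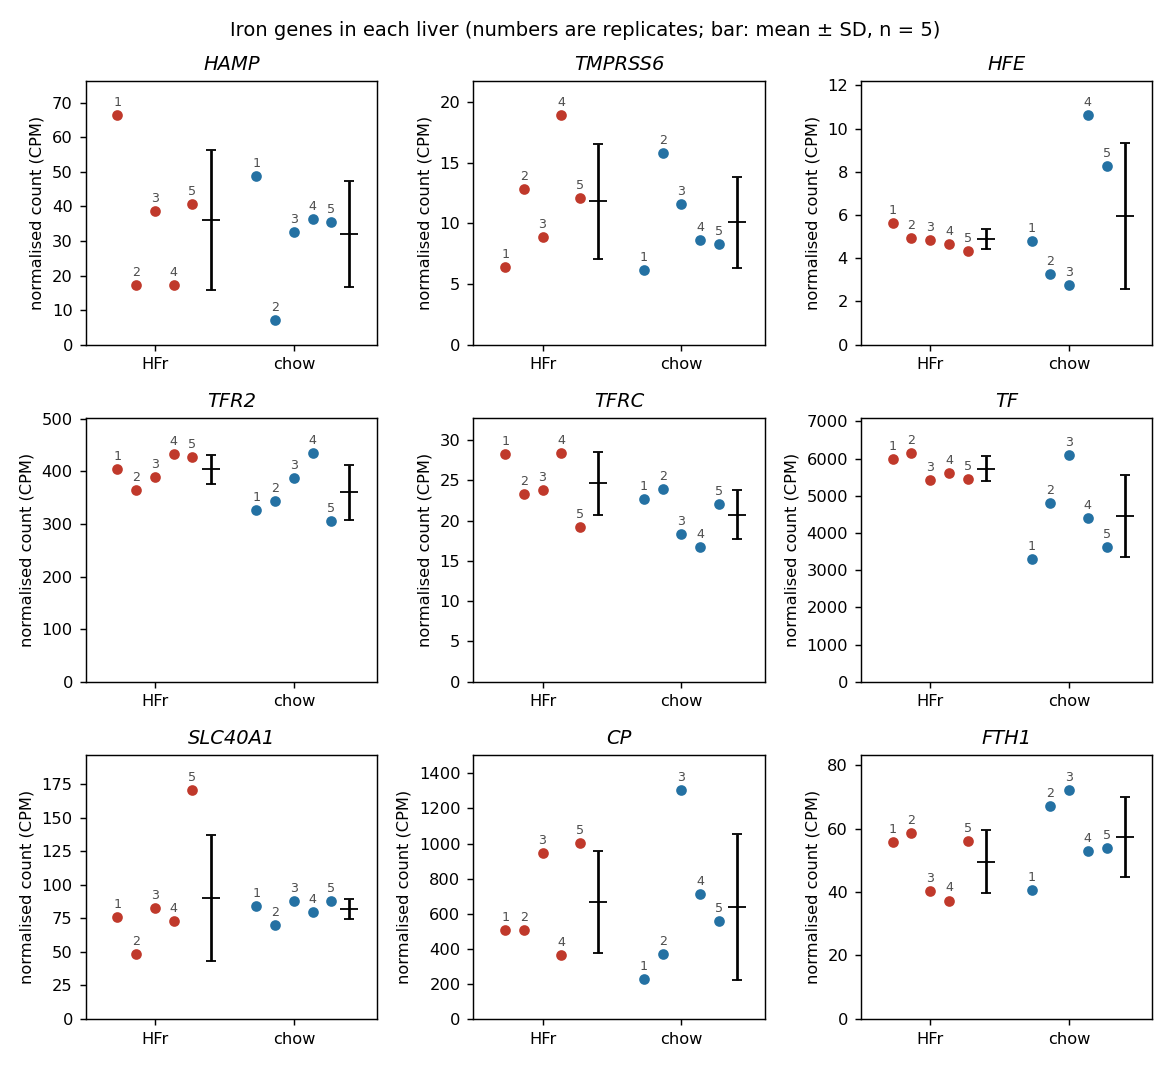
Normalised count (CPM, vertical axis from 0) of each iron gene in each liver, with HFr animals in red and chow animals in blue, the replicate number above each point, and a bar for the mean ± SD of 5 animals. The diets overlap in all 9 panels, HAMP and CP spread widely within both diets, and SLC40A1 of HFr 5 stands at 171, above the other 9 livers.

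Hepcidin, the hormone that the control genes act on, varied more between livers than between diets. HAMP (ENSCSAG00000004516) lies on the plus strand of chromosome 6 of ChlSab1.1, from 30215563 to 30217997. HFr animals 1 to 5 had 66.3, 17.3, 38.7, 17.3 and 40.8 normalised counts of HAMP, and chow animals 1 to 5 had 48.7, 7.01, 32.6, 36.4 and 35.4. The lowest livers, chow 2, HFr 2 and HFr 4, and the highest, HFr 1 and chow 1, came from both diets, and the highest level was 9.46 times the lowest. The estimated counts behind these levels ran from 32 to 213. The diet means were 36.1 ± 20.3 on HFr and 32.0 ± 15.3 on chow (SD, n = 5 each). The log2 fold change was 0.17 (standard error 0.44, 95% interval −0.78 to 1.11, edgeR adjusted p = 0.9996). This interval spans 0.582-fold to 2.16-fold, and the data of these animals do not exclude changes within it. A two-sided exact permutation test over all ways to assign the diets gave a difference in mean log2 level of 0.21 (p = 0.770). That difference was −0.05 without HFr 1 and −0.25 without chow 2.

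TMPRSS6, the protease that restrains hepcidin transcription, was highest in the livers with least HAMP. TMPRSS6 (ENSCSAG00000007605) lies on the minus strand of chromosome 19, from 19771952 to 19806421. It had 6.41, 12.8, 8.88, 18.9 and 12.1 normalised counts in HFr animals 1 to 5, and 6.17, 15.8, 11.6, 8.59 and 8.27 in chow animals 1 to 5. The highest TMPRSS6 levels belonged to HFr 4, chow 2 and HFr 2, which had the lowest HAMP, and the lowest levels to chow 1 and HFr 1, which had the highest HAMP. These levels rested on 17 to 85 estimated counts. Between diets the means were 11.8 ± 4.71 and 10.1 ± 3.72 (SD, n = 5 each), with a log2 fold change of 0.23 (standard error 0.31, 95% interval −0.42 to 0.89, exact permutation p = 0.548).

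The inverse relation was examined after the values had been seen, as 1 of the 36 pairs that the 9 genes form. On log2 levels with a pseudocount of 1, Pearson's r of HAMP with TMPRSS6 was −0.82 over 10 animals (permutation p = 0.00322, adjusted over the 36 pairs 0.116). Spearman's rho was −0.78 (permutation p = 0.0111, adjusted 0.400), so the pair did not pass adjustment by either measure. The value was −0.88 without HFr 2 and chow 2, the animals farthest from the HAMP median, and −0.87 with each diet's mean taken out. With 1 animal left out at a time it ran from −0.87 to −0.77. With the mitochondrial share HAMP had r = 0.55 (permutation p = 0.0922, −0.04 without HFr 2 and chow 2) and TMPRSS6 r = −0.50 (permutation p = 0.137, −0.85 without HFr 4 and chow 1), neither of which passed adjustment (adjusted p = 0.325 for both). With that share regressed out of both genes the value was −0.75, and with scaling by library size only it was −0.49 (permutation p = 0.149). The 10 animals share no batch label, and a common batch was not tested. None of the 36 pairs passed adjustment, and r ranged from −0.82 to 0.63 (TF with TFR2, permutation p = 0.0518). For TF with TFR2 rho was 0.31, and r was −0.14 without chow 1 and chow 5, the animals farthest from the TF median.

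**Figure D2:**
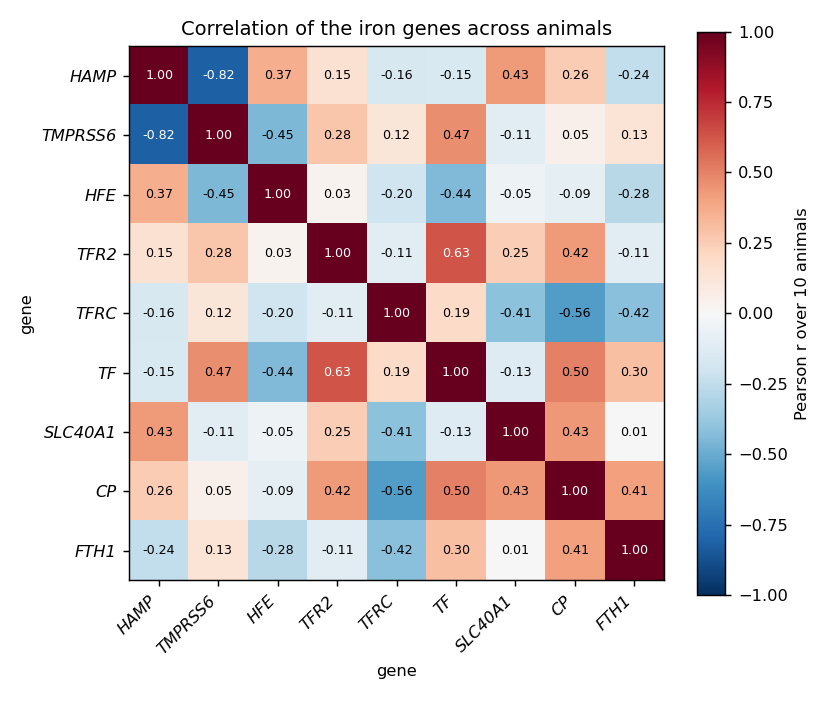
Pearson r of log2 normalised counts (pseudocount 1) over the 10 animals for each pair of the 9 iron genes, on a colour scale from −1 (blue) to 1 (red). The strongest cell off the diagonal is HAMP with TMPRSS6 at −0.82, and most others lie between −0.5 and 0.5.

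HFE, an iron-sensing partner of the BMP branch whose loss causes hereditary hemochromatosis in humans, was measured at the lowest counts. HFE (ENSCSAG00000007897) lies on the minus strand of chromosome 17, from 46156685 to 46164650, and had 12 to 22 estimated counts per animal. Its normalised counts were 5.65, 4.93, 4.84, 4.67 and 4.35 in HFr animals 1 to 5, and 4.80, 3.29, 2.75, 10.6 and 8.27 in chow animals 1 to 5. The HFr livers lay close together, while chow 4 and chow 5 were above every other liver and chow 3 and chow 2 below. The means were 4.89 ± 0.481 and 5.94 ± 3.38 (SD, n = 5 each), with a log2 fold change of −0.18 (standard error 0.36, 95% interval −0.95 to 0.58, exact permutation p = 0.722). Chow 4 and chow 5 were also the livers with the highest mitochondrial shares, 73.6% and 68.7%. Across animals r of HFE with that share was 0.79 (permutation p = 0.0031, adjusted 0.0420 over 27 relations examined after the values were seen), and rho was 0.71 (adjusted p = 0.237). The r was 0.65 without chow 4 and chow 5, and 0.09 with scaling by library size only. Chow 1 and chow 4 each had 21 estimated counts of HFE, but 4.80 and 10.6 normalised counts. Their TMM factors were 1.22 and 0.607. The relation with the share thus depends on the scaling, and a link with HFE expression itself was not tested. In the 7 animals with a share under 65%, a limit also set after seeing the values, the log2 fold change of HFE was 0.43 in place of −0.18. That limit removes chow 4 and chow 5, the livers with the highest HFE, so the change of sign follows from the choice of animals. It is no test of the share or of diet.

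TFR2, the transferrin receptor that hepatocytes use to sense iron-loaded transferrin, varied little. TFR2 (ENSCSAG00000017928) lies on the plus strand of chromosome 28, from 12571841 to 12592267. Its normalised counts were 405, 364, 389, 433 and 428 in HFr animals 1 to 5, and 327, 343, 388, 436 and 306 in chow animals 1 to 5. All 5 HFr livers stood above the chow mean, yet chow 4 was the highest of all 10. The means were 404 ± 28.2 and 360 ± 52.0 (SD, n = 5 each), and the log2 fold change was 0.17 (standard error 0.17, 95% interval −0.20 to 0.53, exact permutation p = 0.143).

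TF came nearest to a diet difference. Transferrin (ENSCSAG00000010691, minus strand of chromosome 15, 56586104 to 56618150) is one of the main proteins that hepatocytes secrete into plasma. HFr animals 1 to 5 had 5989, 6164, 5427, 5611 and 5464 normalised counts, and chow animals 1 to 5 had 3295, 4809, 6095, 4415 and 3621. Of the chow livers, 4 lay below all HFr livers and chow 3 lay within their range. The means were 5731 ± 328 and 4447 ± 1102 (SD, n = 5 each), and the log2 fold change was 0.37 (standard error 0.24, 1.29-fold with a 95% interval of 0.897 to 1.85, edgeR adjusted p = 0.9996). Without adjustment edgeR gave p = 0.155, DESeq2 0.0468, an equal-variance linear model on the deposited normalised values 0.0232, and the two-sided exact permutation test, 1 of 9, 0.0397. The tests thus placed TF on both sides of 0.05. The paper also used an equal-variance test at an unadjusted p under 0.05. For TF the SDs were unlike, 328 on HFr and 1102 on chow, so equal variance is doubtful. The adjusted p of TF over all transcripts was at least 0.838 under every alternative. The log2 fold change stayed positive under all 26 alternatives, between 0.28 and 0.51.

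The receptor for cellular uptake, TFRC, overlapped between the diets. TFRC (ENSCSAG00000008546) lies on the plus strand of chromosome 15, from 91102817 to 91135585. It had 28.3, 23.3, 23.8, 28.4 and 19.2 normalised counts in HFr animals 1 to 5, and 22.6, 23.9, 18.3, 16.7 and 22.1 in chow animals 1 to 5. HFr 4 and HFr 1 were the highest livers, but HFr 5 was lower than 3 of the chow livers. The means were 24.6 ± 3.86 and 20.7 ± 3.06 (SD, n = 5 each), with a log2 fold change of 0.24 (standard error 0.17, 95% interval −0.13 to 0.61, exact permutation p = 0.103).

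Ferroportin, the cellular iron exporter, was set apart by 1 liver. SLC40A1 (ENSCSAG00000012393) lies on the minus strand of chromosome 10, from 75075971 to 75096272. Its normalised counts were 75.7, 48.4, 82.3, 72.9 and 171 in HFr animals 1 to 5, and 83.9, 69.9, 87.8, 79.8 and 87.8 in chow animals 1 to 5. HFr 5 was the highest and HFr 2 the lowest of all livers, and the chow livers lay between them. The means were 90.0 ± 46.9 and 81.8 ± 7.46 (SD, n = 5 each), with a log2 fold change of 0.14 (standard error 0.27, 95% interval −0.45 to 0.73, exact permutation p = 0.960), which was −0.23 without HFr 5.

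The ratio of TFRC to SLC40A1 within a library sets the import receptor beside the exporter and does not depend on the scaling of the library. As a ratio of counts not divided by transcript length, it was 0.373, 0.481, 0.289, 0.390 and 0.112 in HFr animals 1 to 5, and 0.270, 0.342, 0.209, 0.209 and 0.251 in chow animals 1 to 5. All HFr livers but HFr 5, which was the lowest of all 10, stood above 4 of the chow livers. The mean log2 ratio was 0.23 higher on the HFr diet (two-sided exact permutation test, p = 0.579). Without HFr 5 the difference was 0.58 (exact permutation p = 0.0317), and with any other animal left out the exact p was at least 0.460.

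CP encodes ceruloplasmin, the copper-containing ferroxidase of plasma that readies exported iron for transferrin and that rises in the acute phase response. CP (ENSCSAG00000011475) lies on the plus strand of chromosome 15, from 41488730 to 41544170. It had 508, 506, 948, 365 and 1005 normalised counts in HFr animals 1 to 5, and 230, 373, 1307, 713 and 561 in chow animals 1 to 5. The highest and the lowest liver were both on chow, with 5.69 times as much CP in chow 3 as in chow 1. The means were 666 ± 290 and 637 ± 417 (SD, n = 5 each), with a log2 fold change of 0.07 (standard error 0.41, 95% interval −0.82 to 0.95, exact permutation p = 0.706).

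CP moved with other acute phase transcripts across the livers. A score was formed as the mean centred log2 level of CRP, FGA, FGB, FGG, ORM1, LBP and SERPINA3, which encode C-reactive protein, the fibrinogen chains and other plasma proteins of inflammation. It was highest in chow 3 (1.24), HFr 5 (0.93) and HFr 1 (0.57), and lowest in chow 1 (−1.09) and HFr 4 (−0.96). The score did not separate the diets (difference 0.22, two-sided exact permutation test, p = 0.667). Among 27 relations of the 9 genes with the acute phase score, a macrophage marker score and the mitochondrial share, examined after the values had been seen, CP with the acute phase score had the largest r, 0.87 (permutation p = 0.00144, adjusted 0.0389). Spearman's rho was 0.85 (adjusted p = 0.0753). The value was 0.72 without chow 1 and chow 3, 0.81 to 0.93 with 1 animal left out, 0.87 with each diet's mean taken out and 0.90 with scaling by library size only.

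HAMP, which interleukin-6 also raises, had r = 0.34 with the acute phase score (permutation p = 0.346). Its r with the macrophage marker score, built from CD163, MARCO, VSIG4, CD5L, C1QB, C1QC and CSF1R, was 0.77 (permutation p = 0.0086, adjusted 0.0772) and rho was 0.64 (adjusted p = 0.298). That relation leaned in part on the animals with least HAMP, since r was 0.45 without HFr 2 and chow 2. With 1 animal left out at a time r ran from 0.67 to 0.87. The summed macrophage markers ran from 47.6 to 201 normalised counts on the HFr diet and from 53.9 to 219 on chow, and their part in the HAMP levels was not tested.

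**Figure D3:**
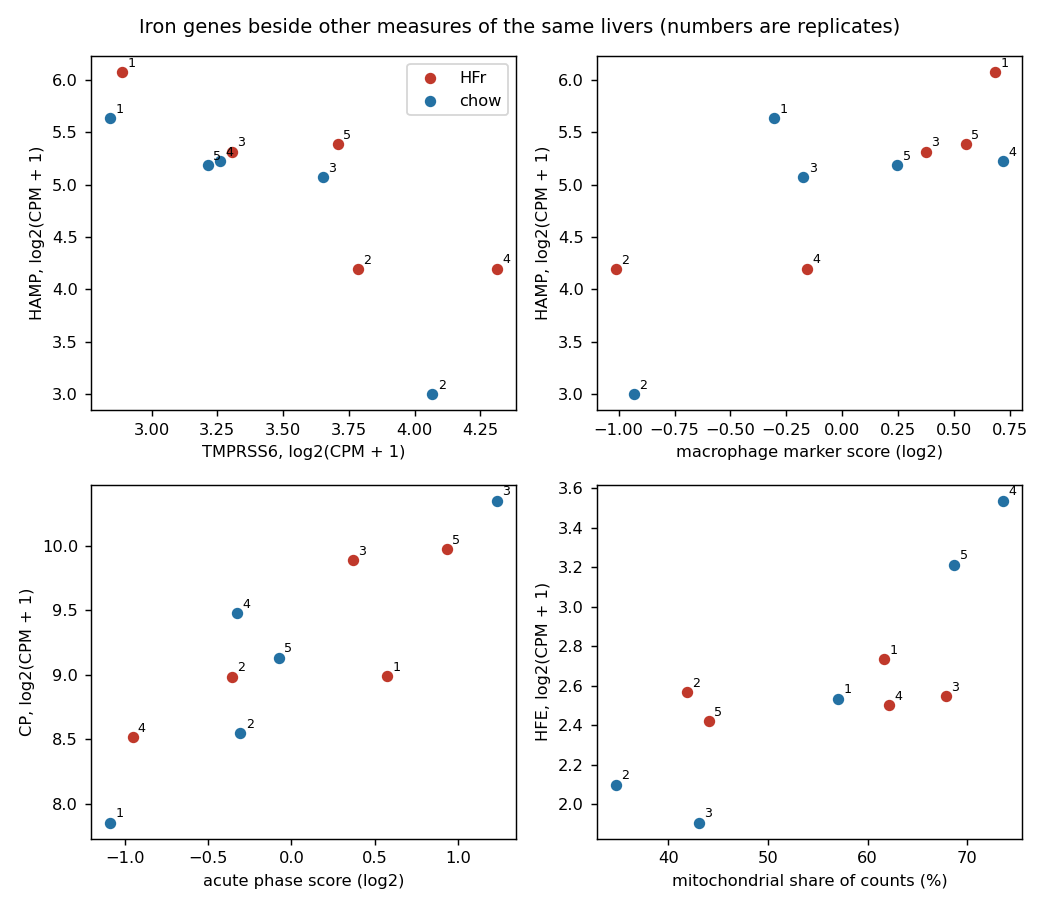
Log2 normalised counts (pseudocount 1) of HAMP against TMPRSS6 and against the macrophage marker score, of CP against the acute phase score, and of HFE against the mitochondrial share of counts (percent), with 1 point per liver, HFr in red, chow in blue and replicate numbers beside the points. HAMP falls along TMPRSS6 (r = −0.82), CP climbs along the acute phase score (r = 0.87), and both diets are mixed along these trends. In the HFE panel the HFr livers lie close together, and both the highest and the lowest levels are in chow livers.

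FTH1, the ferritin heavy chain, was the gene with the largest negative log2 fold change, still within the spread between animals. FTH1 (ENSCSAG00000006491) lies on the plus strand of chromosome 1, from 11838109 to 11840794. It had 55.8, 58.5, 40.3, 37.3 and 56.0 normalised counts in HFr animals 1 to 5, and 40.7, 67.0, 72.3, 53.1 and 53.8 in chow animals 1 to 5. Chow 3 and chow 2 were highest, and HFr 4, HFr 3 and chow 1 lowest. The means were 49.6 ± 9.94 and 57.4 ± 12.5 (SD, n = 5 each), with a log2 fold change of −0.21 (standard error 0.20, 95% interval −0.64 to 0.22, exact permutation p = 0.341). FTH1 was the only one of the 9 genes with fractional estimated counts, so some of its reads were divided with other annotated transcripts and its level is uncertain. Iron regulatory proteins stabilise TFRC mRNA and block translation of ferritin mRNA when iron is scarce, so ferritin protein can change without its transcript. TFRC and FTH1 had r = −0.42 (permutation p = 0.231, adjusted 0.516), and r = 0.68 (permutation p = 0.0264) with scaling by library size only.

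**Figure D4:**
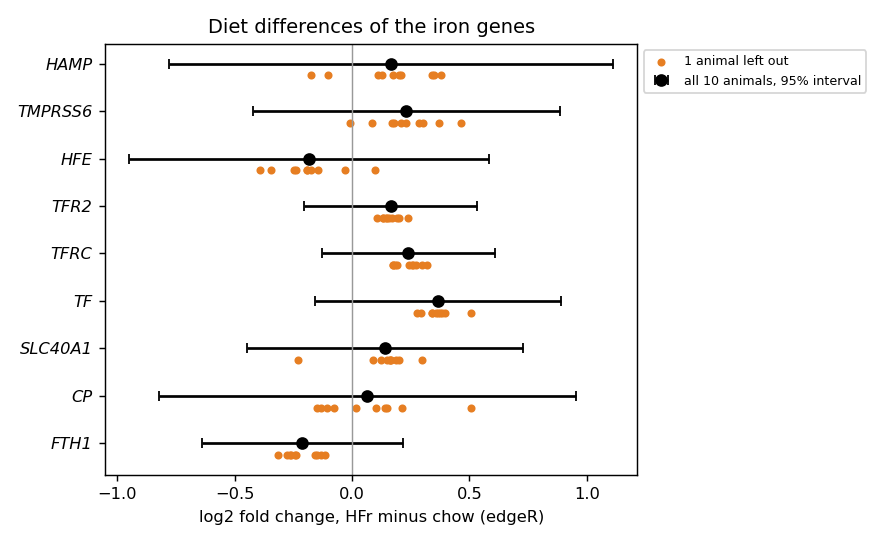
Fitted log2 fold change (HFr minus chow, horizontal axis) of each iron gene, with black points for all 10 animals, bars for the 95% interval, and orange points for the fits with 1 animal left out. All 9 intervals include 0, and the orange points of HAMP, TMPRSS6, HFE, SLC40A1 and CP fall on both sides of it.

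The wider pathway was described through 6 lists of 71 genes, of which 64 had a count and 51 were tested, 24 with positive and 27 with negative log2 fold changes. At an unadjusted p under 0.05 edgeR called 1 of the 51 genes lower and none higher, a smaller share than the 4.29% called among all tested transcripts, and none after adjustment. The 1 gene was BMPR1A, a type I BMP receptor that hepcidin induction passes through. It had 11.3, 16.8, 13.7, 17.3 and 11.7 normalised counts in HFr animals 1 to 5, and 21.9, 18.2, 14.7, 18.7 and 25.3 in chow animals 1 to 5. Only chow 3 fell within the HFr range. The means were 14.2 ± 2.81 on HFr and 19.8 ± 4.02 on chow (SD, n = 5 each), and the log2 fold change was −0.46 with a standard error of 0.20 (edgeR adjusted p = 0.9996). It was not called at an unadjusted 0.05 by DESeq2, with scaling by library size only, with the replicate block, or without HFr 1, HFr 5, chow 1 or chow 5.

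The BMP and SMAD list had 10 tested genes, 4 positive and 6 negative, with a median log2 fold change of −0.07. HJV, which encodes hemojuvelin, the BMP co-receptor that TMPRSS6 cleaves, had 325 ± 68.5 normalised counts on HFr and 267 ± 46.4 on chow (SD, n = 5 each), which the fit put at 0.29 (log2) with a standard error of 0.20. BMP6, the iron-responsive BMP made mainly by sinusoidal endothelial cells, had at most 2 estimated counts in any liver and was not tested. ID1 and SMAD7, transcripts that BMP signals induce along with HAMP, had log2 fold changes of 0.01 (standard error 0.23) and −0.29 (standard error 0.31). Of the BMP targets, ID1 had r = 0.36 with HAMP across the 10 animals (permutation p = 0.309) and SMAD7 had r = 0.48 (permutation p = 0.166). Spearman's rho was 0.31 and 0.55, and no relation of this family of 5 passed adjustment (smallest adjusted p = 0.516). SMAD7 rested on 6 to 33 estimated counts per animal, and its r with HAMP was 0.73 without HFr 3 (permutation p = 0.0216). CRP, the interleukin-6 target, had r = 0.29 with HAMP (permutation p = 0.422), and TFRC had r = −0.16 (permutation p = 0.671).

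The other lists also divided between both directions. The interleukin-6 and STAT3 list had 5 tested genes, 2 positive and 3 negative, among them STAT3 at 0.37 (standard error 0.28) and TYK2 at 0.36 (standard error 0.20). Iron uptake and intracellular handling had 10 tested genes, 3 positive and 7 negative, with a median of −0.03 and a range from −0.22 to 0.24. SLC39A14, the hepatocyte carrier for iron not bound to transferrin, had 428 ± 63.2 on HFr and 405 ± 181 on chow (SD, n = 5 each), which the fit put at 0.08 (log2) with a standard error of 0.27. Heme and hemoglobin clearance had 8 tested genes, 5 positive and 3 negative, with a median of 0.12. Its members included HPX, which encodes the heme scavenger hemopexin (0.12, standard error 0.27), and HMOX1, which encodes the heme-degrading oxygenase (0.19, standard error 0.38). Heme synthesis and iron-sulfur cluster assembly had 11 tested genes, 5 positive and 6 negative, with a median of −0.0053. The acute phase list had 7 tested genes, 5 positive and 2 negative, with a median of 0.17.

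**Figure D5:**
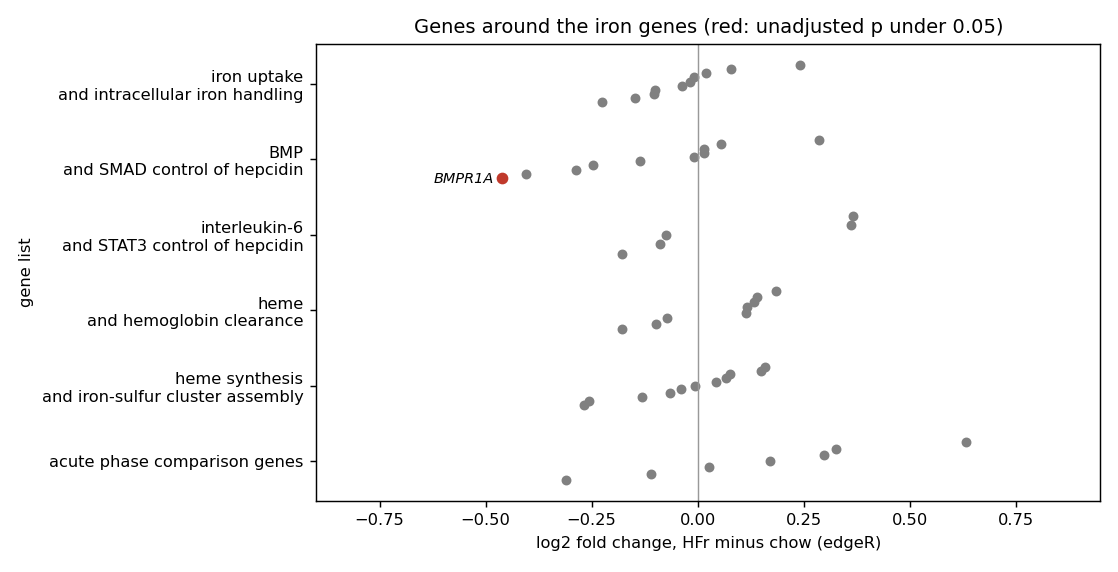
Log2 fold change (HFr minus chow, horizontal axis) of the 51 tested genes of the 6 pathway lists, 1 row of points per list, with a gene at an unadjusted p under 0.05 in red. BMPR1A (−0.46) is the red point, and every list has points on both sides of 0.

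The transcripts most like HAMP over the 10 livers, among 7170 tested transcripts with a symbol, were BAZ2A (r = 0.93), RAB8B (r = 0.91) and CD163 (r = 0.90). CD163, the macrophage receptor for hemoglobin bound to haptoglobin, is also in the macrophage score above. It rested on only 4 to 22 estimated counts per animal, and BAZ2A had means of 5.58 normalised counts on HFr and 5.65 on chow. The transcripts most like TFRC were GSDMD (r = 0.94), FGD3 (r = 0.91) and ARFRP1 (r = 0.89). These are the top values of 7170 and describe the 10 livers only. GSDMD, which encodes the pore-forming protein gasdermin D, had a log2 fold change of 0.63 (standard error 0.29, under 0.05 by edgeR without adjustment). So were 4.29% of all tested transcripts, and none passed adjustment. GSDMD was picked for its likeness to TFRC, whose log2 fold change was also positive (0.24), so its direction is no separate result.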

How the data were processed

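RNA-Seq was performed on liver biopsies of 10 vervet monkeys, 5 fed HFr and 5 fed chow, with 1 library per animal. To make the estimated counts, the authors aligned reads of stranded TruSeq mRNA libraries to ChlSab1.1 with STAR 2.5.3a (per the labels), and divided reads among Ensembl transcripts with an expectation-maximization step in Partek. They are not normalized, and 97.7% are whole numbers. The deposited normalized signal values were scaled by the authors with TMM, and served only for the equal-variance alternative. Positions come from the deposited table and count from 1. FTL had no row, so it and its ratio to FTH1 were not analysed here.

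After rounding, transcripts were kept by filterByExpr at a minimum count of 10 and a minimum total of 15. Diets were compared by edgeR's quasi-likelihood test (version 4.0.16, R 4.3.3) after TMM, with diet as the only term, and Benjamini-Hochberg adjustment ran over all 7948 tested transcripts at a threshold of 0.05. limma 3.58.1 and DESeq2 1.42.0 served for alternatives. Single values were compared by two-sided exact permutation over 252 assignments, whose smallest p is 0.00794. Correlations used log2 normalised counts (pseudocount 1) and 100000 permutations. The procedure was tested on simulated data. Precision is limited by depth, 864571 to 2657103 nuclear counts per animal, and by 5 animals per diet.

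The genes, pathway lists and marker lists were chosen with earlier results of these data known, and 1 listed pathway gene is not reported here. All genes of interest were named, of the pathway lists those at an unadjusted p under 0.05, those in a relation and, after their values were seen, HJV, BMP6, STAT3, TYK2, SLC39A14, HPX and HMOX1, and for HAMP and TFRC the 3 transcripts with the highest r. The alternatives were DESeq2, other scalings, filters and models, a replicate block, and each animal left out. The relations with TMPRSS6, scores and mitochondrial share, the permutation tests of single genes and the fit on animals under 65% mitochondrial share were added after seeing the data.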

Additional observations from a re-analysis of the deposited data

Results flagged for a closer look

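SLC40A1 in HFr 5 stood at 170.7 normalised counts, against 48.4 to 82.3 in the other 4 HFr livers. Its gap to the nearest of them was 0.723 of the range of the group, above the critical value of 0.71 for 5 samples. It was the only such value among 22 groups of 5 examined, where chance marks about 1 in 20. The same liver had the lowest ratio of TFRC to SLC40A1, 0.112, and the lowest TFRC of the HFr livers, 19.2, and its mitochondrial share was 44.0%.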

How the results depend on the processing

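The 26 alternatives gave 0 of the 9 iron genes at an unadjusted p under 0.05, except DESeq2 and the equal-variance linear model on the deposited values, which gave 1 each (TF), and none gave any after adjustment. Over all transcripts the count of 341 became 123 with scaling by library size only and 756 of 16066 without the filter, and 260 to 408 with 1 animal left out. After adjustment DESeq2 called 2 transcripts and library size scaling 1, in place of 0. The 1 pathway gene called, BMPR1A, became 0 genes with DESeq2, library size scaling or a replicate block, the count was 2 without the filter, and it ran from 0 to 2 with 1 animal left out (0 without HFr 1, HFr 5, chow 1 or chow 5, 2 without chow 3 or chow 4). TF, TFRC, TFR2 and FTH1 kept the direction of their log2 fold changes throughout. With 1 animal left out those of the others ran from −0.17 to 0.38 for HAMP (negative without HFr 1 at −0.17 and chow 2 at −0.10), −0.0081 to 0.46 for TMPRSS6 (−0.0081 without HFr 4), −0.39 to 0.10 for HFE (0.10 without chow 4), −0.23 to 0.30 for SLC40A1 (−0.23 without HFr 5) and −0.15 to 0.51 for CP (−0.11 without HFr 3, −0.13 without HFr 5, −0.15 without chow 1, −0.08 without chow 2). voom with sample weights gave −0.0031 for SLC40A1 and 0.066 for HFE, and the 7 animals under 65% gave 0.43 for HFE and −0.10 for CP. The difference in HAMP level ran from −0.25 to 0.42, negative without HFr 1 (−0.05) and chow 2 (−0.25), and that of the TFRC to SLC40A1 ratio from 0.060 to 0.58. The r of HAMP with SMAD7 ran from 0.37 to 0.73, and that of TFRC with FTH1 was 0.68 with library size scaling against −0.53 to −0.21 with 1 animal left out. Library size scaling also took the r of HAMP with TMPRSS6 to −0.49 and that of HFE with the mitochondrial share to 0.09. The TMM factors ran from 0.607 in chow 4, the liver with the highest mitochondrial share, to 1.49 in chow 2, the liver with the lowest. Scaling by library size only leaves these factors out. The cause of the shifts in r was not tested. Replicate numbers did not pair the animals: deviations from the diet means of same-numbered animals correlated at −0.29 to 0.10, and none matched its own number best. With the replicate block 271 transcripts and 0 iron genes were called, and exact sign-flip tests over the pairs gave p = 0.562 for both the HAMP level and the TFRC to SLC40A1 ratio, where 0.0625 is the smallest p 5 pairs allow. The relation of HAMP with BMP6 was not run because BMP6 was near 0, nor the FTH1 to FTL ratio because FTL had no row.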
